A study of Mus musculus with 10 samples.

Results

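The genes described here encode proteins of the U1 small nuclear ribonucleoprotein or proteins that bind it: Luc7l, Luc7l2, Snrpb, Snrpc and Tia1. All rows for these 5 genes were taken from the authors' deposited tables of intronic polyadenylation (IPA), and 11 of 2311 rows were found, 10 of 1561 in the comparison of U1-blocked with unblocked cells and 1 of 214 in 4T07 against 67NR. An IPA site is a cleavage and polyadenylation site inside an intron, whose use ends the transcript early. The tables list such sites on the authors' word as intronic and set their reads against those of the last exon (LE) of the same gene. Usage is the percentage of site reads among site and last-exon reads of a library.

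The study measured polyadenylated 3′ ends in 10 libraries from a set of related mouse breast cancer cell lines, with 2 libraries in each of 5 groups. 4T1-U1-ASO was 4T1 given an antisense morpholino against the U1 RNA, brought into the cells with the Endo Porter delivery reagent at 6 µl/mL. Its comparison group was 4T1. The series design names a mock control, while the 4T1 labels state no treatment. The other groups were lines with no treatment in their labels: 4T07 and 4T1, which the series design calls metastatic, were set against 67NR and 168FARN, which it calls non-metastatic. Each group was 1 line, and no label says that its 2 libraries came from separate cultures. The p-values therefore measure only how far these libraries differ from each other, and that variation may be technical.

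U1 is the particle that pairs with 5′ splice sites at the start of spliceosome assembly. It also keeps cryptic polyadenylation sites in introns from being used, so that blocking U1 lets transcripts end early in many genes. Snrpc encodes U1-C, a U1-specific protein that steadies the pairing with the splice site. Snrpb encodes the SmB protein of the ring shared by U1 and the other Sm-class spliceosomal particles. Luc7l and Luc7l2 encode mammalian relatives of yeast Luc7, a U1 protein that acts in 5′ splice site choice. Tia1 encodes an RNA-binding protein that attaches to uridine-rich sequence beside weak 5′ splice sites and recruits U1 through U1-C.

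Peak lists held 2499475 to 3347776 reads in 9 libraries, and the list of 67NR replicate 2 held 1427728 reads on 10 chromosomes that include neither chromosome 2 nor 6. The libraries of 4T1-U1-ASO listed 100236 and 98270 peaks, against 54210 and 66543 in 4T1. Morpholino block of U1 cannot be checked by the level of its RNA, which carries no poly(A) tail. Of 10 epithelial and mesenchymal markers, Cdh1 and Vim each had a row in the U1-block tables. Spint2, Twist2, Sparc and Axl had rows between lines. Since expression levels of the markers were not analysed here, the labelled cell type was not checked by them.

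Under U1 block, each of the 5 genes had at least 1 listed site, and all 10 rows were higher in 4T1-U1-ASO than in 4T1. The authors' deposited table holds 1561 rows for this comparison, and 87.6% of them were higher, so the shared direction of the 10 rows is also that of most rows. The 10 rows covered 1 site each in Luc7l, Snrpb, Snrpc and Tia1 and 6 sites in Luc7l2. The Luc7l2 sites share 1 last exon and are not independent of each other. With the adjusted p limited to 0.01, 8 of the 10 rows and 23.5% of all rows remain in the authors' deposited table. Because the tables hold only sites that the authors had already called for this contrast, a test of site against last exon on the same reads adds no independent evidence. In edgeR's quasi-likelihood fit that test called every row. Fits of site reads or of last-exon reads alone use the same chosen rows and reads, so they add none either.

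**Figure D1:**
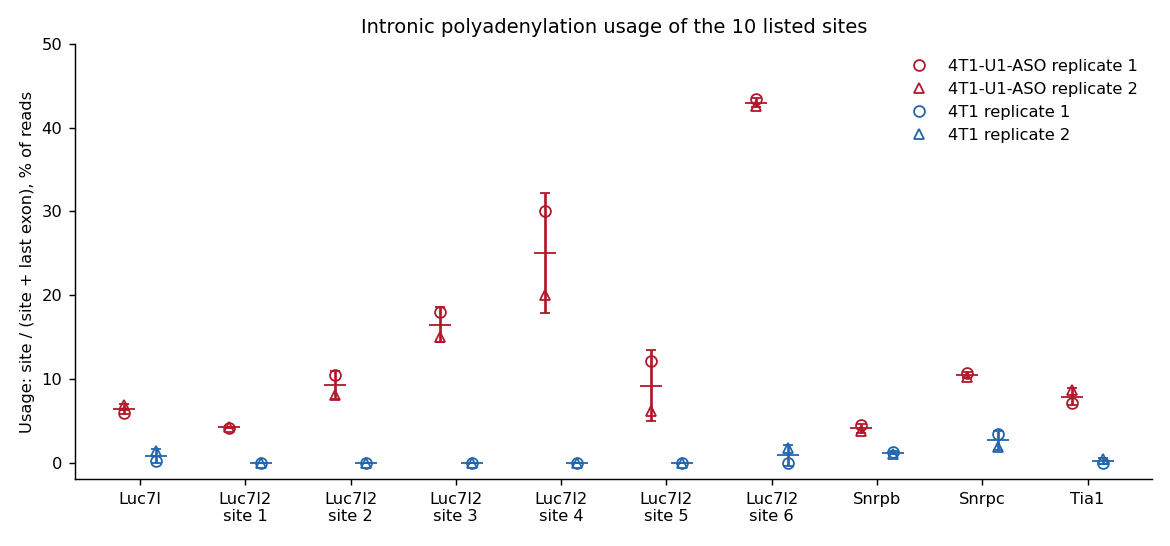
Usage of the 10 listed sites, as site reads over site plus last-exon reads in percent (vertical axis), for 4T1-U1-ASO (red, left) and 4T1 (blue, right). Open symbols are the 2 libraries of a group, horizontal bars their mean and error bars the SD. Both 4T1-U1-ASO libraries lie above both 4T1 libraries at each site, and the highest mean is 43.0% at Luc7l2 site 6 in 4T1-U1-ASO. The sites were listed for the authors' call in this contrast, and the share of all rows so separated was not counted.

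The reads behind these rows differed in whether the site, the last exon or both changed. At Luc7l, Luc7l2 and Tia1 reads at the intronic site itself rose in 4T1-U1-ASO. At Snrpb and Snrpc the difference in site reads did not pass the test on the authors' scaling, and reads of the last exon fell. Last-exon reads also fell at Luc7l and rose at Tia1. The Snrpc site passed with TMM scaling (1.11 on the log2 scale, edgeR adjusted p = 0.0427). In edgeR's quasi-likelihood fit of site reads alone, 8 of the 10 sites were higher at an adjusted p under 0.05, against 57.1% of the 1561 rows. In the same kind of fit for last-exon reads, 3 of 5 genes were lower, against 54.9% of 1131 genes, and 1 was higher, against 9.37%. In bulk RNA, fewer cells of a kind and less RNA per cell cannot be told apart, which applies to every level given here.

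Snrpc, the U1-specific member, had its listed site at chr17:27979135-27979316 on the plus strand of mm9, in 182 bp. The site had 28 and 34 reads in 4T1-U1-ASO, against 13 and 8 reads in 4T1. The last exon had 234 and 298 reads in 4T1-U1-ASO, against 362 and 429 reads in 4T1. Site reads were higher and last-exon reads lower in both blocked libraries, and in neither case did the groups overlap. Usage was 10.5% ± 0.32 in 4T1-U1-ASO and 2.65% ± 1.16 in 4T1 (SD, n = 2 each), a ratio of 3.95. The authors' deposited table gives a log2 fold change of 1.86 with SE 0.52 and an adjusted p of 0.008. Taken alone, site reads differed by 0.96 on the log2 scale (SE 0.45, edgeR adjusted p = 0.0523), which missed the threshold. Last-exon reads fell by 1.16 on the log2 scale (SE 0.19, edgeR adjusted p = 0.00155). The last-exon column matched 1 peak of the lists in all 4 libraries, at chr17:27988845-27988921 and 9529 bp downstream of the site.

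Snrpb, the Sm-ring member, had its site at chr2:129999340-129999487 on the minus strand, in 148 bp. The site had 43 and 40 reads in 4T1-U1-ASO, against 23 and 18 reads in 4T1. The last exon was by far the most abundant of the 5, with 920 and 1028 reads in 4T1-U1-ASO, against 1743 and 1667 in 4T1. In read numbers the site was higher and the last exon lower in both blocked libraries, without overlap. After division by the authors' size factors the site had 34.3 and 31.5 normalized reads in 4T1-U1-ASO, against 31.9 and 18.6 in 4T1, and the groups overlapped. Usage was 4.11% ± 0.51 in 4T1-U1-ASO and 1.19% ± 0.17 in 4T1 (SD, n = 2 each), a ratio of 3.46. For this site the authors' deposited table lists a log2 fold change of 1.65 with SE 0.47 and an adjusted p of 0.011, the smallest change among the 10 rows. Site reads differed by 0.42 (SE 0.38, edgeR adjusted p = 0.302), and last-exon reads fell by 1.42 on the log2 scale (SE 0.21, edgeR adjusted p = 0.00102). The last-exon reads equalled those of a single peak in each of the 4 libraries, at chr2:129997153-129997683 and 1657 bp from the site.

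Luc7l, of the Luc7-like family, had its site at chr17:26391243-26391462 on the plus strand, in 220 bp. The site had 24 and 34 reads in 4T1-U1-ASO, against 1 and 6 reads in 4T1. The last exon had 379 and 463 reads in 4T1-U1-ASO, against 395 and 425 in 4T1. The site separated the groups, whereas the last-exon reads overlapped before scaling. Usage was 6.40% ± 0.63 in 4T1-U1-ASO and 0.82% ± 0.81 in 4T1 (SD, n = 2 each), a ratio of 7.78. In the authors' deposited table the log2 fold change was 2.52 with SE 0.59 and an adjusted p of 0.001. Site reads rose by 2.45 on the log2 scale (SE 0.58, edgeR adjusted p = 0.000365). Last-exon reads fell by 0.56 (SE 0.20, edgeR adjusted p = 0.0395), a call that was lost under TMM scaling, under DESeq2, with a replicate block and without either 4T1-U1-ASO library, and whose sign turned when libraries were scaled by peak-list totals.

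Most same-strand reads listed downstream of the Luc7l site fell outside its last-exon column, and to which gene they belong was not annotated here. A peak at chr17:26407062-26407812 on the same strand held 1148 and 1455 reads in 4T1-U1-ASO, against 1242 and 2009 in 4T1. It also had 1010 to 1850 reads in the lists of 4T07, 67NR replicate 1 and 168FARN, and 2224 in that of 67NR replicate 2, which covers this chromosome. With this and the other listed downstream peaks counted beside the last exon, an alternative chosen after seeing the data, Luc7l usage was 1.44% ± 0.13 in 4T1-U1-ASO and 0.14% ± 0.12 in 4T1 (SD, n = 2 each). The blocked libraries remained above the others, while the level of usage depended on which downstream ends were counted.

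Luc7l2, the other Luc7-like gene, had the most sites of the 5 genes and the highest usage. Its 6 sites lie on the plus strand of chromosome 6 within 14469 bp, and the last of them is 38854 bp upstream of the last-exon peak at chr6:38558601-38559752. They are numbered here from the 5′ side. The last exon had 137 and 136 reads in 4T1-U1-ASO, against 76 and 165 in 4T1, so the blocked libraries fell between the 4T1 libraries. Last-exon reads differed by -0.36 on the log2 scale (SE 0.28, edgeR adjusted p = 0.283). This rested on the spread of 4T1: without 4T1 replicate 1 the difference was -0.66 (edgeR adjusted p = 0.0029) and without 4T1 replicate 2 it was 0.040 (0.87).

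Site 6, at chr6:38518959-38519747, had 105 and 101 reads in 4T1-U1-ASO, against 0 and 3 reads in 4T1. Usage was 43.0% ± 0.55 in 4T1-U1-ASO and 0.89% ± 1.26 in 4T1 (SD, n = 2 each). From the 3 reads among 244 in 4T1 the pooled usage had an exact 95% Clopper-Pearson interval of 0.254% to 3.55%, against 38.5% to 47.6% in 4T1-U1-ASO. These intervals cover counting error only, since PCR reads without molecular identifiers are not independent molecules. In the authors' deposited table its log2 fold change of 4.43 (SE 0.64, adjusted p listed as 0 to 3 decimals) ranked 4 among the 1368 rows higher in 4T1-U1-ASO.

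Site 4, at chr6:38513199-38513407, had 59 and 34 reads in 4T1-U1-ASO and 0 in both 4T1 libraries. Site 3, at chr6:38509779-38510153, had 30 and 24 reads in 4T1-U1-ASO and 0 in both 4T1 libraries. Usage in 4T1-U1-ASO was 25.1% ± 7.1 at site 4 and 16.5% ± 2.1 at site 3 (SD, n = 2). Their log2 fold changes ranked 6 and 14 in the authors' deposited table, at 4.25 and 3.80.

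Sites 1, 2 and 5 were weaker. Site 2, at chr6:38506405-38506726, had 16 and 12 reads in 4T1-U1-ASO, and site 5, at chr6:38514573-38515338, had 19 and 9. Site 1, at chr6:38505279-38505679, had 6 in each blocked library. All 3 sites had 0 reads in both 4T1 libraries. Their usage in 4T1-U1-ASO was 4.21% to 9.28%, and the authors' deposited table lists log2 fold changes of 2.37, 3.15 and 3.09 at sites 1, 2 and 5. Across sites 1 to 5, 0 site reads in 4T1 beside 241 last-exon reads allows a usage of up to 1.24% when 0 is replaced by 3 counts over the group, and up to 1.52% by the exact 95% Clopper-Pearson interval. Set against the value for 3 counts, pooled usage in 4T1-U1-ASO was 3.38-fold higher at site 1, 7.47-fold at sites 2 and 5, 13.3-fold at site 3 and 20.4-fold at site 4. These ratios are not lower bounds, since they leave out the counting error of the blocked libraries. At site 1 the exact 95% Clopper-Pearson interval of pooled usage in 4T1-U1-ASO was 2.19% to 7.24%. Site reads alone passed the edgeR quasi-likelihood test at all 6 sites, with site 6 at an adjusted p of 2.37e-12 and site 1 at 0.0046. Site 1 did not pass with DESeq2 (adjusted p = 0.0933), with a replicate block (0.0572) or without 4T1 replicate 2 (0.053).

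Together the 6 sites had 235 and 186 reads in 4T1-U1-ASO, against 0 and 3 reads in 4T1. Relative to the last exon this was 60.5% ± 3.8 in 4T1-U1-ASO and 0.89% ± 1.26 in 4T1 (SD, n = 2 each). Site 6 took 44.7% and 54.3% of the summed site reads of the blocked libraries, and site 1 took 2.55% and 3.23%. Of 980 genes with a higher row, 745 had 1 such row and 7 had at least 6. Luc7l2 was among the 7, as were Anxa3 and Chka (9 rows each), Tra2a (8), Zwint (7) and Tpm1 (6). Tra2a encodes another splicing regulator, and Tpm1 is known for its alternative exons.

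The 3′ end of Luc7l2 had further peaks outside the last-exon column. A peak at chr6:38553281-38554278 had 100 and 112 reads in 4T1-U1-ASO, against 117 and 139 in 4T1. The peak at chr6:38556829-38557210 had 99 and 93 reads in 4T1-U1-ASO, against 14 and 51 in 4T1. In a quasi-likelihood fit of peaks merged across libraries (edgeR), neither passed, at adjusted p-values of 0.0723 and 0.138. Counting all listed downstream peaks with the last exon, usage of the 6 sites together was 33.0% ± 6.6 in 4T1-U1-ASO and 0.32% ± 0.45 in 4T1 (SD, n = 2 each). The groups stayed apart, and the summed usage was lower than with the last-exon column alone.

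**Figure D2:**
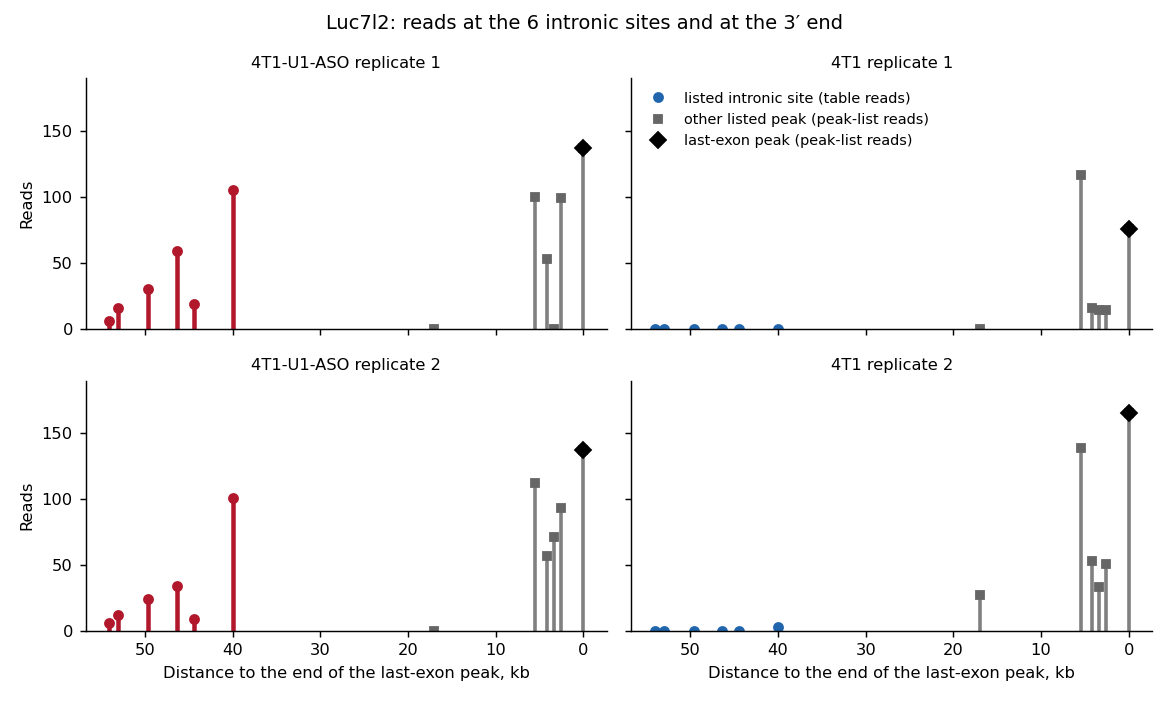
Reads of Luc7l2 3′ ends (vertical axis) against distance to the end of the last-exon peak in kb (horizontal axis), with 4T1-U1-ASO left and 4T1 right, 1 panel per library. Coloured circles are the 6 listed sites, grey squares other listed peaks and black diamonds the last-exon peak; site reads sum to 235 and 186 in 4T1-U1-ASO and to 0 and 3 in 4T1. An end at 0 among the grey squares is one not listed in that library.

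In the lines without U1 block the same stretch of Luc7l2 was nearly empty. From the first to the last site the peak lists held 253 and 175 reads in 4T1-U1-ASO, against 2 and 1 in 4T1, 3 and 4 in 4T07, 3 in 67NR replicate 1 and 1 and 4 in 168FARN. A 0 in a peak list is not proof of 0 reads. Where the tables gave reads at a member site in a library, that library's list lacked a peak in 13 of 31 cases, and over all U1-block rows with at least 10 reads it did so in 27.0% to 38.3%. At the Snrpb and Luc7l sites no peak was listed in any of the 4 libraries of this comparison although the tables hold reads there, so an unlisted site is not read as unused. Values from the lists are given across lines for the Luc7l2 stretch, as a description, and for peaks listed in all 9 libraries.

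Tia1 had its listed site under U1 block at chr6:86371841-86372403 on the plus strand. The site had 35 and 44 reads in 4T1-U1-ASO, against 0 and 1 in 4T1. The last exon had 454 and 465 reads in 4T1-U1-ASO, against 83 and 205 in 4T1. Tia1 was the only member with both blocked libraries above both 4T1 libraries at the site and at the last exon. Usage was 7.90% ± 1.05 in 4T1-U1-ASO and 0.24% ± 0.34 in 4T1 (SD, n = 2 each), and pooled usage in 4T1, 1 read of 289, had an exact 95% Clopper-Pearson interval of 0.00876% to 1.91%. The authors' deposited table gives a log2 fold change of 2.79 with SE 0.73 and an adjusted p of 0.005. Site reads rose by 5.47 on the log2 scale (SE 0.80, edgeR adjusted p = 6.37e-08) and last-exon reads by 1.14 (SE 0.27, edgeR adjusted p = 0.00716).

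The last-exon values depend on how libraries are scaled. The size factors recovered from the table were 1.25 and 1.27 for 4T1-U1-ASO and 0.722 and 0.967 for 4T1, although peak-list totals differed less. With the authors' factors the median log2 change of last-exon reads over 1131 genes was -0.66, with TMM it was -0.52 and with peak-list totals -0.05. Against these medians Snrpb was lower at -1.42, -1.26 and -0.80, and Snrpc at -1.16, -1.02 and -0.56. Both passed the threshold under all 3 scalings, Snrpc at an adjusted p of 0.0485 with peak-list totals. Tia1 was higher under each, at 1.14, 1.27 and 1.71. Luc7l and Luc7l2 lay above the median under each, and their sign turned between scalings: -0.56 and -0.36 with the authors' factors, -0.41 and -0.23 with TMM, and 0.051 and 0.22 with peak-list totals. Scaled by peak-list totals, last-exon reads were lower for 25.9% of genes and higher for 17.2%, and all 10 member sites passed for higher site reads, against 76.8% of the rows, Snrpb at an adjusted p of 0.00559 and Snrpc at 0.000821. Whether the Snrpb and Snrpc sites gained reads thus depended on the scaling, which usage, a ratio within a library, does not contain. Without 4T1 replicate 1 the Snrpc site passed as well (edgeR adjusted p = 0.0308).

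**Figure D3:**
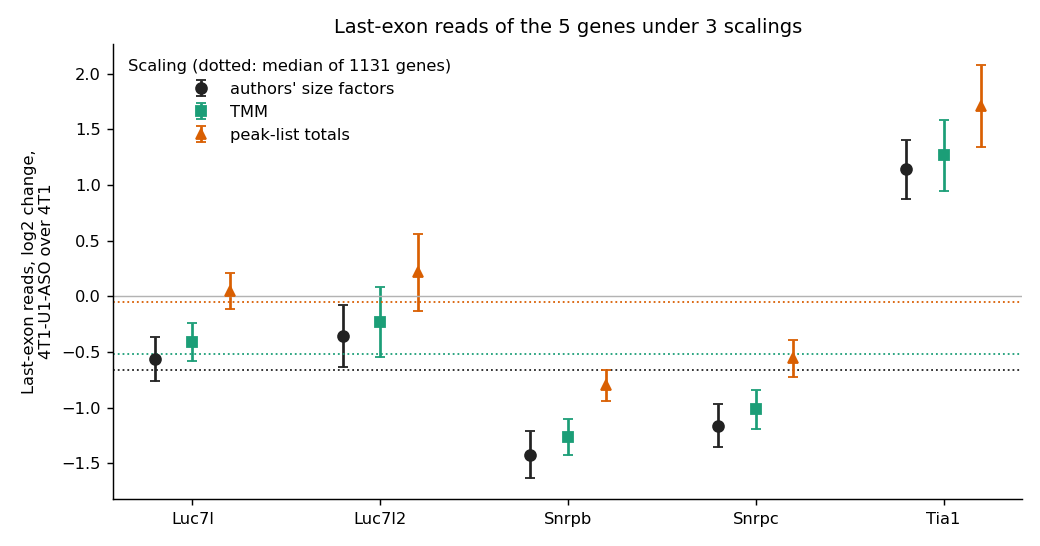
Log2 change of last-exon reads in 4T1-U1-ASO over 4T1 (vertical axis, error bars SE) for the 5 genes under 3 scalings. Dotted lines mark the median over 1131 genes for each scaling; Snrpb and Snrpc lie below their median, Tia1 above, and Luc7l and Luc7l2 change sign.

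The row of another gene with usage most like each member row was found by the mean absolute difference over the 4 libraries. For Luc7l2 site 6 a row of Tra2a, also among the genes with 6 or more rows, was one of the 2 nearest, at 4.03 percentage points. The nearest row was Hnrnpl for Luc7l (0.257 points), Tpm1 for Snrpb (0.169), Errfi1 for Snrpc (0.255) and Ogt for Tia1 (0.170). For Luc7l2 sites 1 to 5 it was Desi1, Gsr, Ric1, Sik2 and Rnf146, at 0.115 to 0.381 points. Hnrnpl encodes an RNA-binding splicing factor.

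Of other U1 genes few were listed. Among 11 genes of the U1 core only Snrpb and Snrpc had rows, and Snrnp70 and Snrpa had none in any table. Among 12 U1-associated genes 6 had rows under U1 block, among them Luc7l, Luc7l2, Tia1, Taf15 and Rbm25, with 15 rows higher and 1 lower in 4T1-U1-ASO. These 16 rows had a median log2 fold change of 2.65 in the authors' deposited table, beside 1.85 over all rows, and 6 of the 16 are the Luc7l2 sites. Taf15 encodes an RNA-binding protein that associates with U1, and Rbm25 a relative of a yeast U1 component. Taf15 had 3 higher rows and 1 lower. Rbm25 had 1 row, used at 12.4% ± 0.89 in 4T1-U1-ASO and 0.80% ± 1.13 in 4T1 (SD, n = 2 each). On the authors' scaling, last-exon reads of Taf15 rose by 1.31 on the log2 scale (edgeR adjusted p = 0.00217). Of 16 genes of snRNP assembly and transport, Clns1a, whose product guides Sm proteins to the assembly machinery, had 1 row, used at 3.81% ± 1.27 in 4T1-U1-ASO and 0.91% ± 0.26 in 4T1 (SD, n = 2 each). Of 7 genes of the minor U11/U12 particle, only Snrnp35 was listed, and it had no row under U1 block.

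Between lines without U1 block, the members were almost absent from the tables. No member row was listed for 4T1 against 67NR (122 rows), 4T1 against 168FARN (85 rows) or 4T07 against 168FARN (329 rows). The single row was a second Tia1 site, in 4T07 against 67NR, at chr6:86354759-86355165 and upstream of the site listed under U1 block. The site had 6 and 7 reads in 4T07, against 17 and 21 reads in 67NR. The last exon had 255 and 369 reads in 4T07, against 101 and 180 in 67NR. Site and last exon thus moved in opposite directions, and neither overlapped between the lines. Usage was 2.08% ± 0.31 in 4T07 and 12.4% ± 2.8 in 67NR (SD, n = 2 each).

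In the authors' deposited table this Tia1 site had a log2 fold change of -1.93, with SE 0.49 and an adjusted p of 0.005. There 17.8% of the 214 rows were higher in 4T07, so a lower value was the common direction. The test of site against last exon gave -2.68 (SE 0.53, edgeR adjusted p = 0.000197), and 82.2% of rows were called lower in it. It called 38 of the 214 rows higher and 176 lower. Those rows had been listed for the authors' call on the same reads, so the test adds no independent evidence. Site reads fell by 1.34 on the log2 scale in 4T07 (SE 0.48, edgeR adjusted p = 0.00653), as did 73.7% of 213 rows. Last-exon reads rose by 1.33 (SE 0.24, edgeR adjusted p = 0.0018), as did 40.5% of 200 genes. The fall in site reads did not pass with DESeq2 (adjusted p = 0.0854) or without 67NR replicate 2 (0.0856). The 2 rows nearest in usage were Cdk5rap3 at 0.628 and Nfil3 at 0.743 percentage points.

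**Figure D4:**
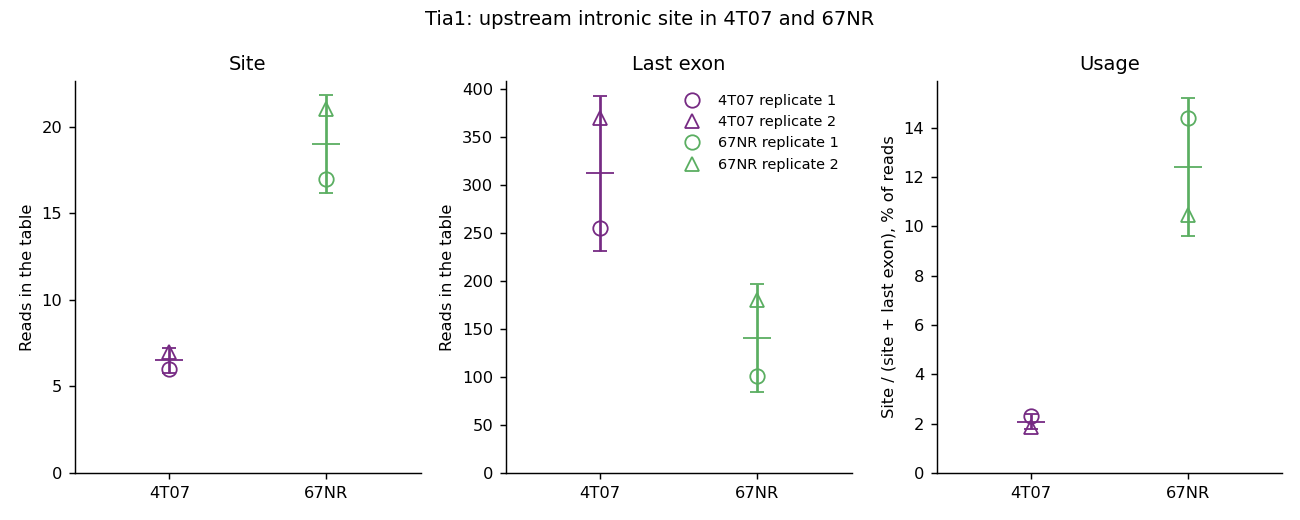
Reads at the upstream Tia1 site, reads at the last exon and usage in percent (vertical axes), for 4T07 (left in each panel) and 67NR. Symbols are libraries, bars mean and SD; site reads are 6 and 7 in 4T07 and 17 and 21 in 67NR, last-exon reads are higher in 4T07, and mean usage is 2.08% in 4T07 and 12.4% in 67NR.

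This Tia1 site was listed in all 9 libraries whose lists cover chromosome 6. It had 11 and 3 reads in 4T1-U1-ASO, 1 and 6 in 4T1, 6 and 7 in 4T07, 17 in 67NR replicate 1 and 5 and 6 in 168FARN. The highest was 67NR, and the other libraries had 11 reads or fewer. In the fit of merged peaks, which lacks 67NR replicate 2 here, the difference between 4T07 and 67NR was -1.20 on the log2 scale (SE 1.04, edgeR adjusted p = 0.605). With the tables' reads, the difference of site against last exon kept its sign without either 67NR library. The site was listed for the authors' call on these same reads, so this is no independent evidence.

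Levels of the 3′ ends could be compared across all lines at 13 member peaks listed in 9 libraries, which were tested in 5 contrasts, 65 tests in all, with p-values adjusted over 26697 merged peaks. Comparisons that share a group share its libraries. In 4T1-U1-ASO against 4T1, 2 of the 13 peaks were lower, against 8.63% of all merged peaks, and 0 were higher, against 4.16%. The 13 were kept for being listed in all 9 libraries, while the 26697 include peaks that were not. A fit of only the 14607 peaks so listed called 2748 lower and 2414 higher in this contrast, a larger share. It also called more member peaks over the 5 contrasts. Shares given below for the other contrasts have the same limit. DESeq2 called 3 of the 13 higher and 2 lower in this contrast, beside 2141 higher and 2467 lower of all 26697. In each of the 5 contrasts DESeq2 called more of all merged peaks than edgeR did. Of the 13, 8 had an unadjusted edgeR p under 0.05. The share of all peaks at that level was not counted for any contrast, so such counts are not read as particular to the members. The 2 peaks called lower by edgeR were the last-exon peaks of Snrpb and Snrpc.

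Levels are given in reads per 1000000 reads of the library's peak list (RPM). The Snrpb peak had 354 and 389 RPM in 4T1-U1-ASO, against 697 and 596 in 4T1. It had 614 and 635 in 4T07, 465 in 67NR replicate 1 and 529 and 468 in 168FARN. The blocked cells were below every unblocked library, and the change against 4T1 was -1.06 on the log2 scale (SE 0.17, edgeR adjusted p = 0.0171). Without 4T1-U1-ASO replicate 1 or 2 the adjusted p was 0.103 or 0.0863. Between lines the log2 differences of Snrpb ranged from 0.36 to 0.53 and none passed.

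The Snrpc peak had 90.1 and 113 RPM in 4T1-U1-ASO, against 145 and 153 in 4T1. The other lines had 93.7 and 84.7 in 4T07, 79.5 in 67NR replicate 1 and 147 and 116 in 168FARN. The list of 67NR replicate 2 had 256 reads at this peak, not scaled here because that list lacks chromosomes. Blocked cells were below 4T1 but within the range of the other lines. The change against 4T1 was -0.80 (SE 0.19, edgeR adjusted p = 0.0481), and it lost the threshold under 10 of the alternatives, among them without either 4T1-U1-ASO library (0.218 and 0.109) and with peak-list totals (-0.52, 0.113). In rising order the unblocked groups ran 67NR, 4T07, 168FARN and 4T1, and none of the 4 line contrasts passed in edgeR, the nearest being 4T1 over 67NR at 0.95 (SE 0.24, adjusted p = 0.0799).

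The Luc7l2 last-exon peak had 52.8 and 51.8 RPM in 4T1-U1-ASO, against 30.4 and 59.0 in 4T1. It had 52.7 and 57.3 in 4T07, 50.5 in 67NR replicate 1 and 36.5 and 44.0 in 168FARN. No contrast passed for this peak, with log2 differences between lines of -0.16 to 0.48. The Luc7l2 peak at chr6:38553281-38554278 was higher in 4T1 than in 67NR by 0.93 (SE 0.17, edgeR adjusted p = 0.0375). It was 1 of 13 called higher there, against 4.18% of merged peaks, and 0 were lower, against 3.25%. Only 67NR replicate 1 stands for 67NR in this contrast, and the call was lost under 10 alternatives, with log2 differences of 0.88 to 0.96 in them.

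Among the line contrasts of these 13 peaks, the largest log2 differences were at Tia1. The peak at chr6:86380232-86381174, downstream of both Tia1 sites, had 180 and 189 reads in 4T1-U1-ASO, 25 and 72 in 4T1, 74 and 112 in 4T07, 21 in 67NR replicate 1 and 1 and 3 in 168FARN. The library with fewer reads in 4T1 was still above 168FARN. This peak was higher than in 168FARN by 4.70 on the log2 scale in 4T1 (SE 0.61, edgeR adjusted p = 0.00928) and by 5.49 in 4T07 (SE 0.62, edgeR adjusted p = 0.00738). In 4T07 against 67NR the difference was 2.30 (SE 0.66, edgeR adjusted p = 0.118), and in 4T1-U1-ASO against 4T1 it was 1.76 (SE 0.48, 0.0749).

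The next Tia1 peak, at chr6:86382441-86382797, had 73 and 57 reads in 4T1-U1-ASO, 16 and 30 in 4T1, 39 and 53 in 4T07, 15 in 67NR replicate 1 and 11 and 10 in 168FARN. It was higher in 4T07 than in 168FARN by 2.15 (SE 0.34, edgeR adjusted p = 0.0185), a call lost when any 1 of these 4 libraries was left out (adjusted p = 0.0687 to 0.0918). By mean RPM the groups keep the same order at these 2 peaks, with 4T1-U1-ASO highest and 168FARN lowest. Another peak of the run, at chr6:86420071-86420381, ran the other way, with 11 and 7 reads in 4T1-U1-ASO, 18 and 15 in 4T1, 20 and 18 in 4T07, 44 in 67NR replicate 1 and 35 and 28 in 168FARN. It was lowest in 4T1-U1-ASO, and its log2 differences were -1.12 to -0.67 in the 5 contrasts, of which none passed in edgeR. In 4T1-U1-ASO against 4T1 its unadjusted p was 0.0462 and its adjusted p 0.166. The run of peaks that best matched Tia1's last-exon column still differed from it by 18.2% of its reads, so these peaks are given by position and not as the last exon. This run holds 23 merged peaks, and its end lies 37.6 kb past the peak at chr6:86382441-86382797. To which gene the peak at chr6:86420071-86420381 belongs was not annotated here.

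The Luc7l peak at chr17:26421883-26422538, the most distal of its last-exon run, had 32.4 and 23.8 RPM in 4T1-U1-ASO, 31.6 and 29.7 in 4T1, 7.63 and 6.44 in 4T07, 14.0 in 67NR replicate 1 and 11.1 and 10.6 in 168FARN. The list of 67NR replicate 2 had 41 reads there, likewise not scaled. Both 4T1 groups were above the 3 other lines at this peak. The run differed from Luc7l's last-exon column by 7.82% of its reads. At the larger peak at chr17:26407062-26407812, 4T1-U1-ASO had 442 and 550 RPM, 4T1 497 and 719, and 67NR replicate 1 had 553. That peak passed neither under U1 block nor in the contrasts with 168FARN in edgeR. The distal peak was higher in 4T1 than in 168FARN by 1.59 on the log2 scale (SE 0.26, edgeR adjusted p = 0.0179). Without 1 of the 168FARN libraries the adjusted p was 0.0729 or 0.0882. In all, 2 of 13 peaks were higher in 4T1 than in 168FARN, against 6.28% of merged peaks, and 2 of 13 were higher in 4T07 than in 168FARN, against 5.98%. None of the 13 was lower in either contrast with edgeR, against 5.57% and 4.54%. DESeq2 called 4 of the 13 higher and 0 lower in 4T1, beside 2343 and 2162 of 26697 merged peaks. It called 2 higher and 1 lower in 4T07, beside 2221 and 1883. Fitted alone, the 14607 peaks listed in all 9 libraries gave 2123 higher and 2097 lower in 4T1, and 1972 and 1787 in 4T07. By unadjusted edgeR p under 0.05, 6 of 13 passed in 4T1 and 4 of 13 in 4T07 against 168FARN. The share of all merged peaks at that level was not counted. For 4T07 against 67NR 0 of 13 passed, against 3.96% higher and 2.78% lower, with 4 at an unadjusted edgeR p under 0.05 and 1 called by DESeq2.

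**Figure D5:**
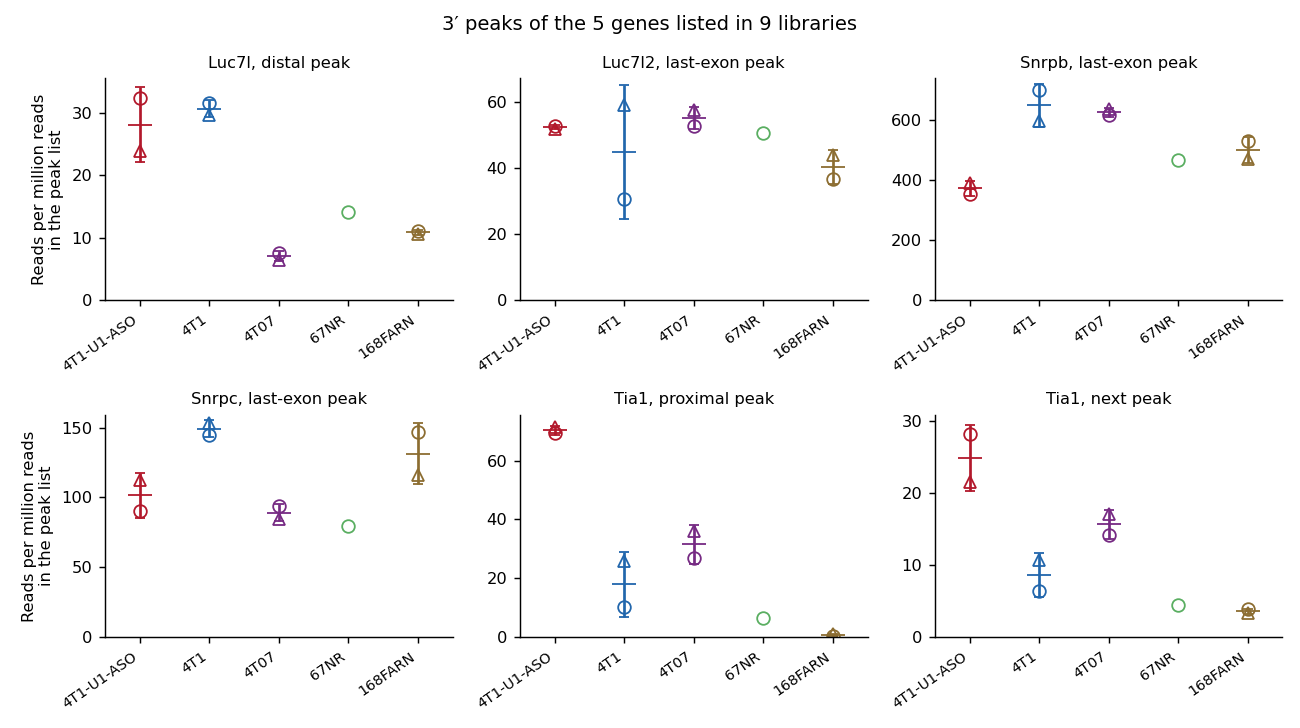
Reads per 1000000 reads of the library's peak list (vertical axes, from 0) at 6 peaks of the 5 genes, by group; circles are replicate 1, triangles replicate 2, bars mean and SD, and 67NR replicate 2 is not plotted. Snrpb is lowest in 4T1-U1-ASO at 354 and 389, and the 2 Tia1 peaks plotted are highest there. The distal Luc7l peak is highest in the 2 groups of 4T1 cells. A peak farther downstream in the run matched to Tia1 is not plotted and is lowest in 4T1-U1-ASO. The gene of that peak was not annotated here.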

How the data were processed

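Poly(A)+ RNA 3′ ends of 10 libraries were sequenced as 50-nt single reads after 13 PCR cycles and selection of 200 to 300 bp fragments, per the labels' protocols. Build mm9, DESeq2 1.4.5, bedtools 2.17.0, SAMtools 1.1 and Bowtie2 2.2.5 are listed in the submitters' processing notes. How reads that map to closely related genes (Luc7l and Luc7l2, or Snrpb and Snrpn) were treated was not stated in the labels. The authors deposited 1 peak list per library with a read count per peak, and 10 tables with, per the file headers, normalized signal of site and last exon, a log2 fold change with its SE, the test statistic (a score), and p-values before and after adjustment (at most 0.1). Positions are 1-based mm9. Deposited signs were turned for tables against 67NR, so that fold changes are the first-named line over the second.

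Table signals were whole multiples of the value of 1 read in 100% of values (tolerance 0.1 read) and were turned back into reads. These were tested with edgeR 4.0.16 (R 4.3.3, quasi-likelihood, authors' size factors, at least 10 reads, Benjamini-Hochberg over all rows of a comparison, adjusted p under 0.05). Peaks overlapping by 1 bp on a strand were merged and fitted with TMM scaling. The 10-library fit that had been intended used 9 libraries, because the list of 67NR replicate 2 covers 10 chromosomes. With simulated reads at a dispersion of 0.05, the ratio fit on 1561 rows recovered 82.5% of sites at a log2 change of 3 and 47.5% at a change of 2, the site fit 91.5% and 43%, the last-exon fit 100% and 99%, and the merged-peak fit on 26697 peaks 76.5% and 58%. At a log2 change of 1 the 4 fits recovered 0%, 0.5%, 41% and 2.5%, in the same order. Most such changes were missed, so a difference near 1 that did not pass is not shown to be absent. DESeq2 1.42.0 and other settings were alternatives. Named genes were every row of the 5 members, members of 4 gene lists present in any table, and the 2 rows of other genes nearest in usage to each member row; some of these are not reported here. The members and lists were chosen with earlier results of these data known. No genome of build mm9 was used here, and no sequences are given.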

Additional observations from a re-analysis of the deposited data

Results flagged for a closer look

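One signal lay outside the sites that the tables list. A same-strand peak at chr6:38503914-38504106, 1173 bp upstream of the first listed Luc7l2 site, had 20 reads in 4T1-U1-ASO replicate 1 and 16 in replicate 2. It was listed in none of the 7 other libraries that cover chromosome 6, and no table holds it. A peak list can lack a peak where reads exist, so the lists do not tell how many reads the other libraries had there. With 2 libraries in a group, no single library could be tested for standing apart from its group.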

How the results depend on the processing

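At each of the 11 member sites the groups did not overlap in usage, also without any 1 library and with other downstream peaks counted (11 each). With peak-list reads in place of table reads this held at 7. The share of all rows without overlap was not counted, and every row was listed for the authors' call between these groups. These counts are therefore not read as particular to the members. The test of site against last exon called 10 of 10 member sites under every alternative, and Tia1 in 4T07 against 67NR ranged over -2.99 to -2.47 on the log2 scale. With or without a replicate block, that test called 1368 of all 1561 rows of the U1-block comparison higher and 193 lower. With the block, counts of calls were 10 for that test, 7 for site reads, 2 lower and 1 higher for last-exon reads, and 8 for peaks in all 5 contrasts. Over all rows of the U1-block comparison, the block gave 682 of 1561 higher for site reads. For last-exon reads it gave 586 lower and 108 higher of 1131 genes. For merged peaks of that comparison it gave 648 higher and 1799 lower of 26697. In the contrasts with 168FARN it gave 1289 higher and 979 lower for 4T1, and 1160 and 834 for 4T07. The difference between replicates 1 and 2 of a group correlated with that of its comparison group at -0.030 to 0.252. With 2 libraries in a group, this cannot exclude a batch shared by same-numbered libraries. Member peaks called numbered 7, against 15 with DESeq2, 3 without a low-count filter and 18 with only peaks listed in all 9 libraries. The number also changed with 1 library left out. Calls over all peaks moved as well. In 4T1-U1-ASO against 4T1, 1110 of 26697 were higher and 2304 lower, against 2141 and 2467 with DESeq2. They were 270 and 1040 of 131534 without the filter, and 2414 and 2748 of 14607 with only peaks listed in all 9. For 4T1 against 168FARN they were 1676 and 1486, against 2343 and 2162 with DESeq2 and 676 and 639 without the filter. For 4T07 against 168FARN they were 1597 and 1212, against 2221 and 1883 and 645 and 440. The member counts run over all 5 contrasts, of which those with 67NR rest on 67NR replicate 1. They are therefore not read as particular to the members. Reversed signs were seen for last-exon reads scaled by peak-list totals (Luc7l 0.051, Luc7l2 0.22), for Luc7l2 last-exon reads with 1 library left out (-0.66 to 0.040), for the Luc7l peak starting at 26418590 (-0.074 to 0.33) and for the Luc7l2 last-exon peak under U1 block (-0.33 to 0.43, and -0.014 without a filter). The cause was not tested. Of 497 values recomputed for single sites, genes or peaks, 424 kept their direction and side of the threshold or stayed within 1 SD, and 8 reversed. Under 10 reads a site (Luc7l2 site 1, upstream Tia1 site in 4T07) limits what can be shown.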
